A study of Homo sapiens with 13 samples.

Results

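The cytosolic ribosomal protein genes encode the protein part of the ribosomes that translate nuclear mRNAs. The members were taken as every row of the count table whose Ensembl identifier belongs to a protein-coding gene with an RPL, RPS, RPLP or RPSA symbol, pseudogenes left out. The rule found 85 of the 43836 genes in the table: 43 of the large subunit, 3 of the P stalk, 31 of the small subunit and 8 paralogs whose symbols end in L or L1. The rule passes over genes such as FAU and RACK1, which also encode parts of the ribosome under other symbols. These are counted below with a separate list.

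hFOB 1.19 is an immortalized human fetal osteoblast line, so each group comes from a single cell line. The 12 mRNA-seq libraries form 5 groups: 2 positive controls grown with 10% fetal bovine serum and vehicle, 2 negative controls grown with vehicle but without serum, 3 libraries from serum-starved cells given RES (resveratrol, a stilbenoid), 3 from serum-starved cells given POG (peonidin-3-O-glucoside, an anthocyanin) and 2 labelled DEG. Each compound was used at 1 µg/mL. The labels do not spell out DEG, although the treatment text names delphinidin-3-glucoside beside the other compounds. The DEG label also gives no serum condition, and among the compounds the study's methods describe serum starvation for RES and POG only. The comparisons below take the DEG cells as serum-starved. DEG replicate 3 is labelled and was not analysed here. The study's methods describe RES and POG as added to wells in triplicate, but no label ties a library to a well, and the sources used here do not say whether the control and DEG libraries came from separate cultures. The p-values measure the spread between these libraries, which may be technical.

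The libraries held 38464619 to 51416358 counted reads. The markers of the osteoblast lineage COL1A1 (2463 to 2869 CPM, which are counts scaled to a common library total), COL1A2, SPARC and RUNX2 were present in every library, whereas the osteoblast differentiation markers IBSP (0 to 0.0224 CPM), BGLAP (0.425 to 2.00 CPM), SPP1 and ALPL (3.22 to 6.66 CPM) were absent or low. The 13 markers of cartilage, fat, blood, endothelium and epithelium stayed at or below 6.19 CPM, with LEP and CD3E at 0. Their part in the results was not tested.

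Ribosomal proteins are made in nearly equal numbers, carried into the nucleus by dedicated chaperones and built onto ribosomal RNA as the subunits mature. Their mRNAs begin with a run of pyrimidines, the 5′ terminal oligopyrimidine (TOP) tract, through which the growth-regulating kinase complex mTORC1 and the RNA-binding protein LARP1 adjust their translation and stability. Serum supplies the growth factors that drive this system, and serum-starved cells cut back ribosome production. Free RPL5 and RPL11 also bind the ubiquitin ligase MDM2, which ties ribosome assembly to the cell cycle.

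Of the 85 members, 68 had a start-site sequence among the RefSeq promoters of GRCh38.p14. In a window from 10 bases before to 15 bases after the start, 48 of the 68 (70.6%) had an unbroken run of 8 or more pyrimidines, against 11.1% of 15843 protein-coding promoters. The longest run in this window had a median of 10 bases in the members and 4 in all promoters. The letters CTTTC stood in the window, on the gene's strand, in 39.7% of the members and 3.48% of all promoters, and CTCTTT in 17.6% and 1.04%. The sequences overlap in letters with each other and with the pyrimidine run. Over the whole 300 bases and both strands, CCGGAAG, a core recognised by ETS factors, was found in 33.8% of the members and 14.2% of all promoters, and TATAAA in 10.3% and 9.63%.

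The starts of 11 members that the results below turn on are printed from 30 bases before to 20 bases after the start, 5′ to 3′ on the strand of the gene. Capitals mark the longest pyrimidine run in the window around the start. The first group holds members that rose with serum and were lower with RES.
RPL3, chr22:39319604-39319653, minus strand: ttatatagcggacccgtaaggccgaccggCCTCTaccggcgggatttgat
RPSA, chr3:39406690-39406739, plus strand: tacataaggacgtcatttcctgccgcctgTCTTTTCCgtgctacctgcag
RPL7A, chr9:133348188-133348237, plus strand: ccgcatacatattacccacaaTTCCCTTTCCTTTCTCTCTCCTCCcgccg
RPL13A, chr19:49487578-49487627, plus strand: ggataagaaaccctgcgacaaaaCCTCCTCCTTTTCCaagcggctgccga
RPLP2, chr11:809937-809986, plus strand: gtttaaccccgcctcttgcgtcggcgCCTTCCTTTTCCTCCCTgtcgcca
RPL22, chr1:6199576-6199625, minus strand: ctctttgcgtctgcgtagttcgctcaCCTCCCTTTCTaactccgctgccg

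RPL12 rose with serum, POG and DEG, and its run is short.
RPL12, chr9:127451387-127451436, minus strand: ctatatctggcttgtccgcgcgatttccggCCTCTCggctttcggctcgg

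RPL28 and RPS27 were not called with serum, and carry runs of 13 and 9 bases.
RPL28, chr19:55385902-55385951, plus strand: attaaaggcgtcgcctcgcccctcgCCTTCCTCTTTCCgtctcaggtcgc
RPS27, chr1:153990732-153990781, plus strand: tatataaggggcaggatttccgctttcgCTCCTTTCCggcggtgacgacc

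The paralogs RPS27L and RPL26L1 have at most 3 pyrimidines in a row in the window.
RPS27L, chr15:63157458-63157507, minus strand: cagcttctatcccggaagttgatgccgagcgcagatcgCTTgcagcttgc
RPL26L1, chr5:172958699-172958748, plus strand: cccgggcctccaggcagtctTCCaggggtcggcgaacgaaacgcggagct

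The members took 3.75% and 3.42% of all counted reads in the positive controls (3.58% ± 0.228, SD, n = 2) and 2.90% and 2.97% in the negative controls (2.94% ± 0.0497, SD, n = 2). With RES the share was 2.91%, 2.84% and 2.86%, with POG 3.03%, 3.04% and 3.04%, and with DEG 3.07% and 3.10%. Both positive controls lay above every other library, and the POG and DEG libraries lay above all RES libraries and both negative controls. The RES range overlapped that of the negative controls. These are shares of the mRNA pool. In bulk samples, a different mix of cells and a different amount of RNA per cell cannot be told apart. The share on mitochondrially encoded genes was also highest in the positive controls, at 3.91% and 3.64% against 3.03% to 3.41% in the other libraries. It was lowest with DEG, at 3.11% and 3.03%, where the member share lay above those with RES, with POG and in the negative controls. The part of the mitochondrial share in the result was not tested.

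**Figure D1:**
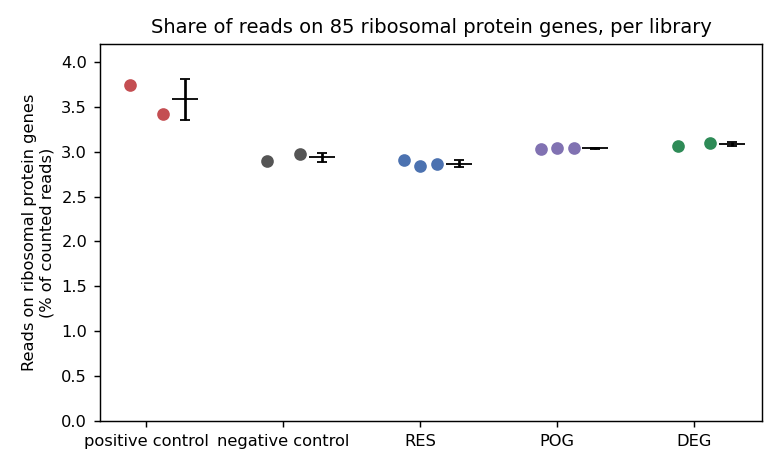
Percent of counted reads on the 85 ribosomal protein genes (vertical axis) in each of the 12 libraries, by group. Points are libraries and the bars beside them are the mean ± SD. The positive controls sit at 3.42% and 3.75%, above all other libraries, which lie between 2.84% and 3.10%.

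Of the 85 members, 84 passed the filter on low counts. The exception was RPL10L, a copy of RPL10 best known from testis, with 5 reads in the 12 libraries together. A difference among the 5 groups was called for 79 of the 84 by edgeR's quasi-likelihood test at a false discovery rate (FDR) under 0.05, against 55.8% of the 17092 genes tested. The 5 without a call were RPS10, RPS27L, RPL3L, RPL17 and RPL36A.

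Levels between genes were compared as CPM per kilobase of the canonical transcript, averaged over the 12 libraries. Among the highest were the small-subunit genes RPS27 at 1021, RPS18 at 972 and RPS2 at 950 CPM per kilobase. At the other end stood RPL10L at 0.0122 and RPL3L, the striated-muscle copy of RPL3, at 0.0530 CPM per kilobase. RPS10 (2.40), RPL36A (7.29, against 182 for its paralog RPL36AL) and RPL17 (30.5 CPM per kilobase) were the lowest of the members other than L paralogs. Each of these 3 is overlapped by a readthrough gene, namely RPS10-NUDT3, RPL36A-HNRNPH2 and RPL17-C18orf32, which held 30, 0 and 20 reads in all libraries together. The sources used here do not state how reads on overlapping genes or on several loci were counted, and 26 members have 20 or more named pseudogenes, RPL21 133 of them. The counts of these members are therefore uncertain in level.

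The comparison of positive with negative controls asks what serum does to these genes. With serum 77 of the 84 members were higher and 0 were lower by edgeR's exact test (FDR under 0.05 over all genes tested), against 21.4% of all genes called higher and 20.9% called lower. DESeq2 and the quasi-likelihood test gave the same counts, and at an unadjusted p under 0.05 the counts were 79 and 0. The share of all genes at that unadjusted limit was not counted, here or in the comparisons below. The median log2 fold change of the members was 0.32, where the median of all genes lay near 0. The 2 positive controls lay above both negative controls for 80 members, against 32.9% of all genes, and they lay below for 0 members, against 32.7%. In the large subunit 40 of 43 members rose, in the small subunit 29 of 31, in the P stalk 3 of 3 and among the L paralogs 5 of the 7 tested.

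The positive controls differed from each other by a median of 0.14 on the log2 scale over 74 members, and replicate 1 was the higher. The median log2 fold change was 0.26 without that library and 0.40 without the other. Of the 77 calls, 75 were kept without positive control replicate 1 and all 77 without replicate 2.

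**Figure D2:**
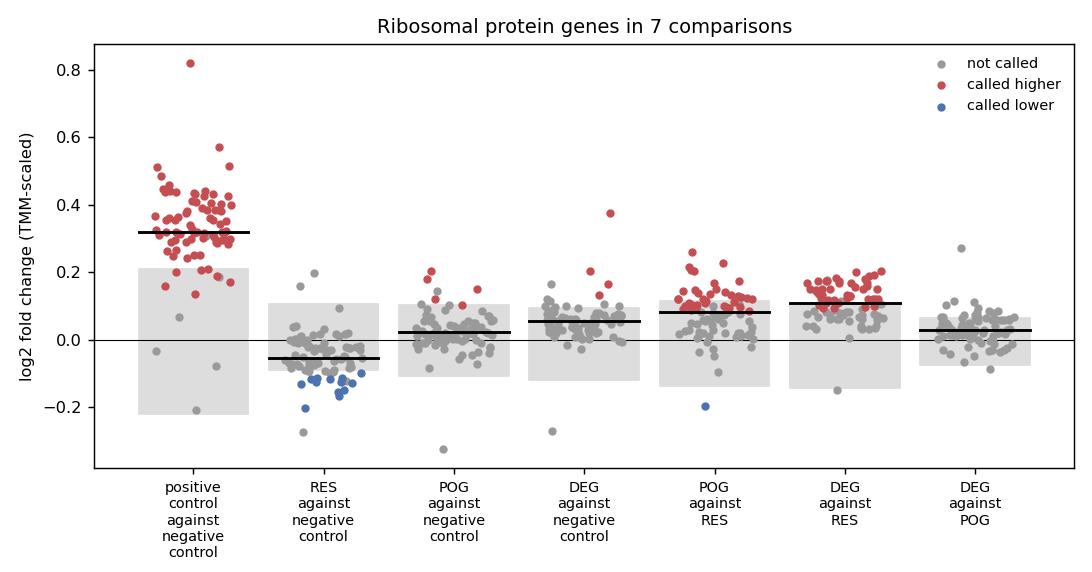
log2 fold change (vertical axis) of the tested ribosomal protein genes in each of 7 comparisons. Each point is a gene, red where called higher and blue where called lower at FDR under 0.05, black lines are medians, and grey boxes span the interquartile range of all 17092 genes. RPL3L, at under 1 CPM, is left out. The serum median is 0.32, and the 6 other medians lie between -0.05 and 0.11.

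RPL22L1, a paralog of RPL22 on chromosome 3 (170864875 to 170870208, minus strand, GENCODE v44), had the largest called rise with serum. Its levels were 19.7 and 17.8 CPM in the positive controls and 9.66 and 11.6 CPM in the negative controls. The groups did not overlap, and the log2 fold change was 0.82 (SE 0.094, exact test FDR = 5.28e-17). RPL22 itself, which is dispensable for translation in many cells, stood at 255 and 232 CPM with serum and 196 CPM in both negative controls. Its log2 fold change was 0.32 (FDR = 8.93e-13).

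RPL3, on chromosome 22 (39312882 to 39320389, minus strand), is a large-subunit protein near the peptidyl transferase centre. It was measured at 874 and 810 CPM with serum and 555 and 578 CPM without. The difference was 0.57 on the log2 scale (SE 0.032, exact test FDR = 1.71e-47). RPL12, which forms the base of the stalk, rose from 465 and 462 CPM to 702 and 619 CPM, a log2 fold change of 0.51. RPL26L1, a close copy of RPL26, had 34.7 and 29.2 CPM with serum and 23.6 and 21.2 CPM without, also a log2 fold change of 0.51 (FDR = 2.75e-10). RPL26 rose by 0.30.

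The P stalk recruits the translation factors that hydrolyse GTP. RPLP0, its anchor, had 800 and 734 CPM with serum and 609 and 627 CPM without, and RPLP2 486 and 427 against 360 and 377 CPM. Both had a log2 fold change of 0.31. RPLP1, the partner of RPLP2, rose by 0.19 (FDR = 2.04e-05).

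RPSA, the laminin receptor protein of the small subunit, had 456 and 426 CPM with serum and 328 and 336 CPM without (log2 fold change 0.41, exact test FDR = 2.63e-26). RPS6, the substrate of the S6 kinases downstream of mTORC1, rose by 0.39. RPS27A, made as a fusion with ubiquitin, rose by 0.38, and RPS3, at the mRNA entry channel, by 0.21. RPL5 and RPL11, the MDM2-binding pair that joins the ribosome with 5S RNA, rose by 0.43 and 0.28. RPL10, which joins the large subunit late, rose by 0.30, and RPL41, the shortest member, by 0.25. All of these passed the exact test with groups that did not overlap.

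The 7 tested members without a call were RPL3L, RPS10, RPL36A, RPL17, RPS27L, RPS27 and RPL28. The first 3 lay under 7 CPM in every library. RPL17 had 22.5 and 18.7 CPM with serum and 18.6 and 17.8 CPM without, a log2 difference of 0.18 (SE 0.082, FDR = 0.0660). RPL36A had a log2 difference of 0.31 (SE 0.14, FDR = 0.0577). Both were called higher with 1 library left out, RPL17 without positive control replicate 2 (0.32, FDR = 0.000862) and RPL36A without negative control replicate 2 (0.51, FDR = 0.0124).

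RPL28 and RPS27 were not low. RPL28, on chromosome 19 (55385932 to 55403250, plus strand), had 944 and 868 CPM with serum and 914 and 943 CPM without. The serum libraries enclosed the negative controls, and the log2 difference was -0.03 (SE 0.031, FDR = 0.509). RPS27, a zinc-finger protein of the small subunit, had 396 and 349 CPM with serum and 341 and 369 CPM without, a log2 difference of 0.07 (SE 0.042, FDR = 0.253). Its paralog RPS27L had 56.9 and 52.4 CPM against 55.9 and 59.5 CPM, a log2 difference of -0.08 (FDR = 0.250). All 3 calls rest on the positive controls used. Without positive control replicate 1, RPL28 was lower (-0.09, FDR = 0.00439) and RPS27L was lower (-0.13, FDR = 0.0454). Without positive control replicate 2, RPS27 was higher (0.16, FDR = 1.48e-06).

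**Figure D3:**
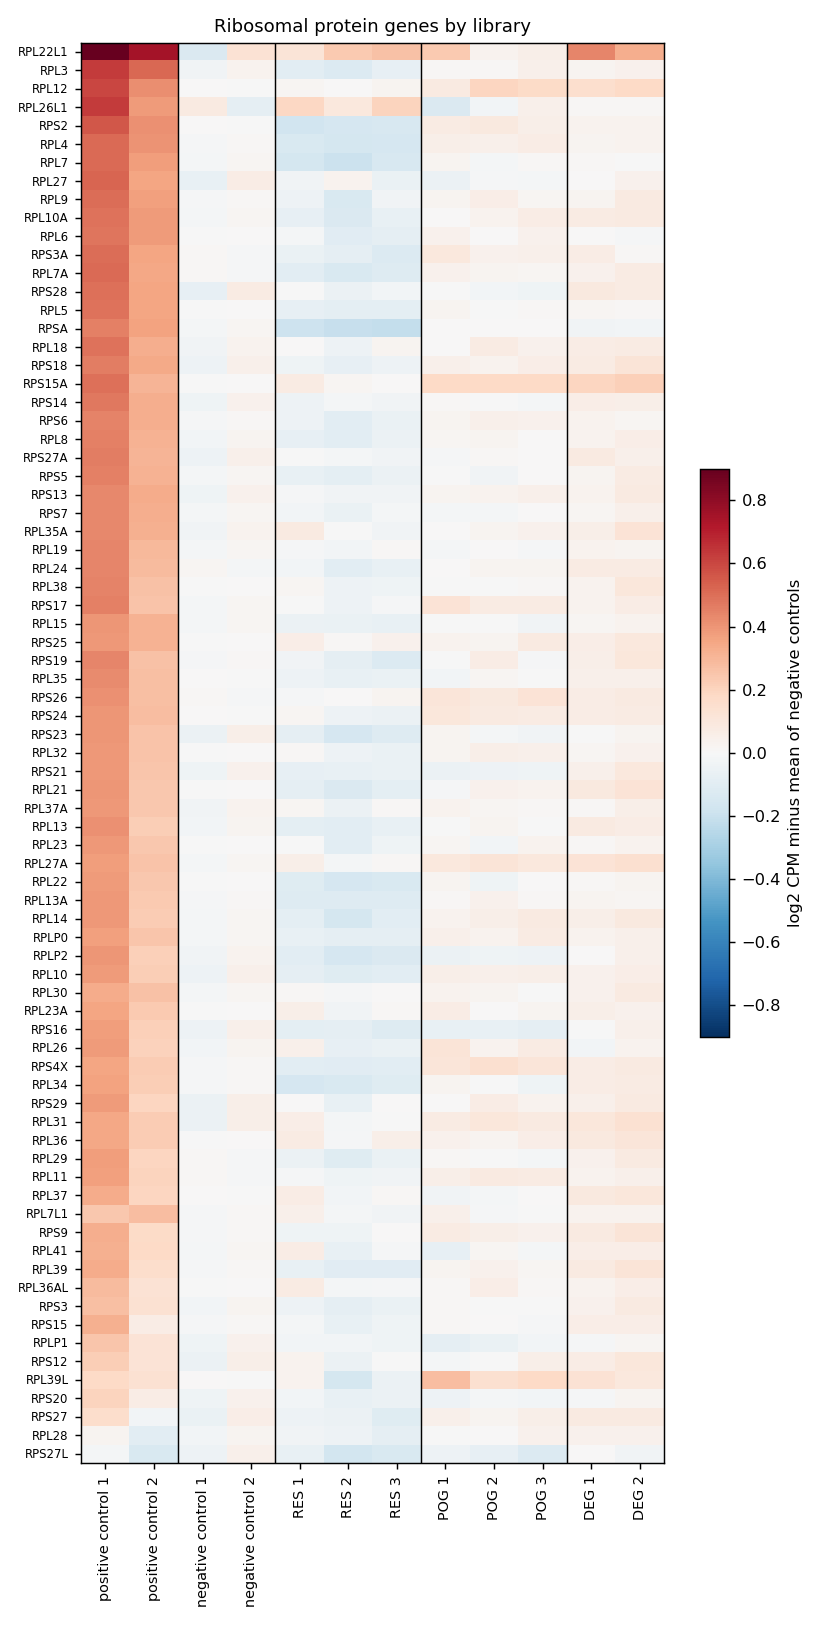
log2 CPM of each ribosomal protein gene (rows, ordered by the change with serum) in each of the 12 libraries (columns), minus the mean of the negative controls. Genes under 20 CPM are left out apart from RPL22L1, as are 3 genes not reported here. Red is higher and blue is lower. The positive controls are red in nearly every row, with RPL22L1 and RPL3 at the top and RPL28 and RPS27L at the bottom, and the RES columns are pale blue in most rows.

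A second scaling, chosen after the data were seen, set the typical member to the same level in every library (TMM over the members alone). A call then means a change relative to the other ribosomal protein genes. The sign then no longer says whether a gene rose or fell against the rest of the library. On that scale 8 members were higher with serum, among them RPL22L1, RPL3, RPL12, RPL26L1, RPS2, RPL4 and RPL7. The 11 lower were RPS10, RPS27L, RPL28, RPS27, RPS20, RPL39L, RPS12, RPLP1, RPS15, RPS3 and RPL36AL. Of these 11, RPS20, RPL39L, RPS12, RPLP1, RPS15, RPS3 and RPL36AL were among the 77 called higher on the usual scale. In the same fit 3.41% of all genes were called higher and 57.5% lower. RPL39L, the copy of RPL39 at the exit tunnel, had 39.6 and 38.6 CPM with serum and 35.2 and 34.9 CPM without. Its rise of 0.16 on the usual scale (FDR = 0.0235) did not pass without any 1 of positive control replicate 1 (FDR = 0.0777), negative control replicate 1 (FDR = 0.0897) or negative control replicate 2 (FDR = 0.102).

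The comparison of RES with the negative controls asks what resveratrol does in starved cells. With RES 13 of the 84 members were lower and 0 were higher by the exact test, against 6.21% of all genes lower and 4.94% higher. DESeq2 and the quasi-likelihood test each called 14 lower and 0 higher, and at an unadjusted p under 0.05 the counts were 27 lower and 2 higher. The median log2 fold change was -0.05, and 68 of the 84 values were negative. All 3 RES libraries lay below both negative controls for 41 members, against 21.3% of all genes, and above for 3, against 19.7%. The count depended on single libraries, with 5 calls without negative control replicate 1, 3 without replicate 2, 5 without RES replicate 2 and 5 without RES replicate 3, all of them among the 13.

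RPSA had the largest fall. It stood at 292, 288 and 286 CPM with RES and at 328 and 336 CPM in the negative controls. It fell by 0.20 on the log2 scale (SE 0.030, exact test FDR = 3.48e-07), and the call held without any single library. RPL7, a large-subunit protein, had 265, 258 and 267 CPM against 292 and 299 CPM. It fell by 0.17 (FDR = 0.000265; 0.0534 without negative control replicate 2). RPS2, at the mRNA entry channel, had 754, 766 and 767 CPM against 853 and 846 CPM, and fell by 0.16 (FDR = 0.000506). For these members the RES libraries did not overlap the negative controls.

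The other members lower with RES included RPL4, RPL22, RPL34, RPLP2, RPS23, RPL7A, RPL13A, RPL14 and RPL3. Their log2 differences ran from -0.15 for RPL4 to -0.10 for RPL3. RPL3, at 530, 520 and 537 CPM with RES, only just passed (FDR = 0.0494), and RPL3, RPL13A and RPL14 each lost their call without any 1 of the 5 libraries. RPL22, RPL34, RPLP2 and RPL7A each lost it without 4 of the 5, and RPS23 without 3. RPL4 kept its call without any single library, as did RPSA and RPS2. Scaled to the pool, RPSA was the 1 member still lower with RES and 0 were higher, against 1.67% of all genes lower and 5.32% higher in the same fit, so the share lower was near that of all genes.

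**Figure D4:**
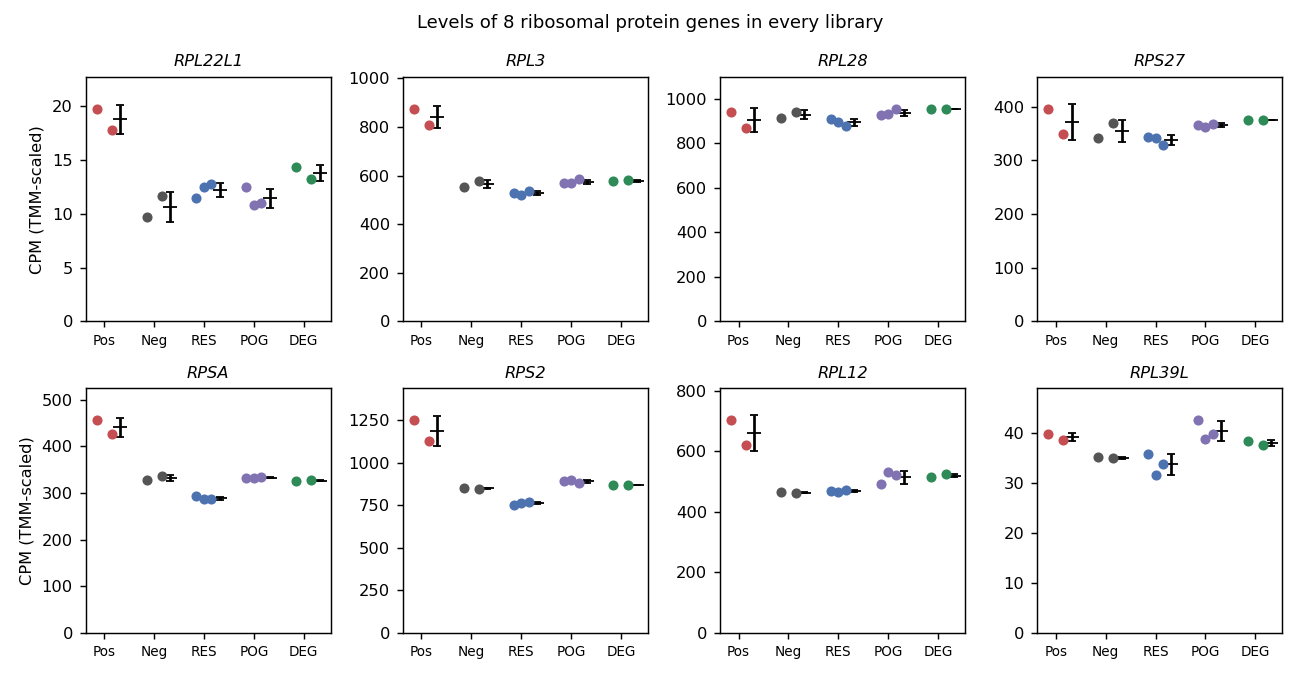
CPM (vertical axis, from 0) of 8 ribosomal protein genes in every library. Pos and Neg are the positive and negative controls, points are libraries, and bars are the mean ± SD. RPSA and RPS2 are lowest in the RES libraries, RPL22L1 and RPL3 are highest with serum, and RPL28 stays between 868 and 955 CPM throughout.

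With POG 5 of the 84 members were higher than in the negative controls and 0 were lower, against 5.93% and 8.57% of all genes. The share of members higher, 5.95%, was thus near that of all genes. DESeq2 and the quasi-likelihood test also gave 5 and 0, and at an unadjusted p under 0.05 there were 10 and 0. The median log2 fold change was 0.02. All POG libraries lay above both negative controls for 29 members, against 21.6% of all genes, and below for 4, against 22.5%. The count was 0 without negative control replicate 1, 1 without negative control replicate 2, 3 without POG replicate 1 and 2 without POG replicate 2.

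RPL39L had 42.4, 38.7 and 39.7 CPM with POG and 35.2 and 34.9 CPM in the negative controls, a log2 fold change of 0.20 (SE 0.054, FDR = 0.00399). RPS15A, a small-subunit protein, had 80.5, 80.5 and 80.3 CPM against 70.9 and 71.1 CPM, and rose by 0.18 (FDR = 0.00201; 0.0549 without negative control replicate 1). RPL12 had 490, 531 and 521 CPM against 465 and 462 CPM, and rose by 0.15 (FDR = 0.00461). RPL27A and the X-linked RPS4X rose by 0.10 and 0.12. In each case the groups did not overlap. The call of RPL39L was lost without either negative control or without POG replicate 1, and that of RPL12 without either negative control or without POG replicate 2. Those of RPL27A and RPS4X were also lost without either negative control or without POG replicate 2. Of the 5 calls, 3 were kept without POG replicate 1 and 4 without POG replicate 3. RPL27A or RPS4X was among the calls lost in each of these fits.

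With DEG 4 of the 84 members were higher and 0 lower, against 3.52% and 6.11% of all genes. The share of members higher, 4.76%, was near that of all genes. DESeq2 and the quasi-likelihood test gave 5 and 0, and an unadjusted p under 0.05 gave 15 and 0. The median log2 fold change was 0.05, and 79 of 84 values were positive. Both DEG libraries lay above both negative controls for 59 members, against 25.4% of all genes, and below for 1, against 26.4%. The count was 1 without negative control replicate 1, 1 without DEG replicate 1 and 1 without DEG replicate 2.

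RPL22L1 had 14.3 and 13.3 CPM with DEG against 9.66 and 11.6 CPM, a log2 fold change of 0.37 (SE 0.098, FDR = 0.00350), which did not pass without negative control replicate 1 (FDR = 0.267) or DEG replicate 1 (FDR = 0.133). RPS15A had 81.1 and 82.5 CPM and rose by 0.20 (FDR = 0.00188; 0.0635 without DEG replicate 2). RPL12 had 515 and 523 CPM and rose by 0.16 (FDR = 0.00670), a call lost without any 1 of the 4 libraries. RPL27A rose by 0.13, a call also lost without any 1 of the 4 libraries. RPS15A, RPL12 and RPL27A were called with both POG and DEG, and these comparisons share their negative controls.

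The 3 compounds were also compared with each other at their common dose, in 3 pairs, with the FDR taken within each pair over all genes. With POG 38 members were higher than with RES and 1 was lower, against 13.7% and 14.1% of all genes. The median log2 difference was 0.08, and 54 members had all POG libraries above all RES libraries, against 21.2% of all genes, and 1 had them below, against 20.9%. The count of calls was 25 without RES replicate 2. With DEG 45 members were higher than with RES and 0 lower, against 10.3% and 10.8% of all genes. DESeq2 gave 45 and 0, the quasi-likelihood test 46 and 0, and an unadjusted p under 0.05 gave 55 and 1. The median log2 difference was 0.11, and both DEG libraries lay above all RES libraries for 72 members and below for 1, against 24.2% and 24.2% of all genes. The count of calls was 28 without DEG replicate 1 and 17 without DEG replicate 2. Both comparisons use the same RES libraries.

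RPL39L differed most among the calls between POG and RES, at 42.4, 38.7 and 39.7 CPM with POG and 35.8, 31.4 and 33.8 CPM with RES (log2 difference 0.26, SE 0.048, FDR = 1.96e-06). RPS2 came next, at 892, 901 and 883 CPM against 754, 766 and 767 CPM, a difference of 0.23 (FDR = 9.60e-11). RPSA was higher by 0.20 (FDR = 7.56e-10). The 1 lower member was RPL26L1, at 20.4, 22.0 and 23.1 CPM with POG and 25.4, 23.9 and 25.7 CPM with RES (-0.20, FDR = 0.010), and it did not pass without RES replicate 3 (FDR = 0.0607) or POG replicate 1 (FDR = 0.112).

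Between DEG and RES, RPL21 was higher by 0.20 (280 and 287 CPM against 249, 240 and 248 CPM, FDR = 3.91e-06) and RPL34 by 0.20 (114 CPM in both DEG libraries against 97.7, 98.7 and 100.4 CPM, FDR = 2.42e-05). Both held without any single library. RPL28, with no call for serum, was higher with DEG than with RES by 0.09 (FDR = 0.0410).

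Between DEG and POG, 0 members were called in either direction by the exact test, DESeq2 or the quasi-likelihood test. Over all genes the exact test called 0.55% higher and 0.497% lower (1.05% in all). At an unadjusted p under 0.05, 8 members were higher and 0 lower, a limit at which the share of all genes was not counted. The median log2 difference was 0.03. Both DEG libraries lay above all POG libraries for 42 members, against 16.2% of all genes, and below for 8, against 15.7%. For the 74 members at or over 100 CPM, the 95% intervals of the differences all lay within -0.12 and 0.19 on the log2 scale.

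The changes varied with the length of the protein. Over the 74 members other than L paralogs at or over 20 CPM, a limit set after the values were seen, the log2 fold change with serum had a Spearman rho of 0.46 with coding length across genes, against -0.20 across 13929 protein-coding genes. For RES the rho was -0.52 (0.02 over all protein-coding genes), for POG 0.23, for DEG -0.31, and for POG against RES 0.56 (-0.06 over all). For DEG against RES it was 0.36, and for DEG against POG, where 0 members were called, it was -0.47 (0.045 over all). With the length of the canonical transcript in place of coding length, rho was 0.135 with serum, -0.106 with RES and 0.183 for POG against RES. Pairs of libraries within a group gave rho values from -0.38 to 0.29. All points share the same libraries, and genes are not independent replicates.

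In 3 bins of coding length, the 25 shortest (75 to 405 bases) had a median of 0.31 with serum and the 25 longest (582 to 1281 bases) of 0.38. With RES the medians were -0.02 and -0.09, and 3 short and 8 long members were called lower. For POG against RES they were 0.03 and 0.12, with 7 and 19 called higher. The part of RNA quality and fragment length in this relation was not tested.

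**Figure D5:**
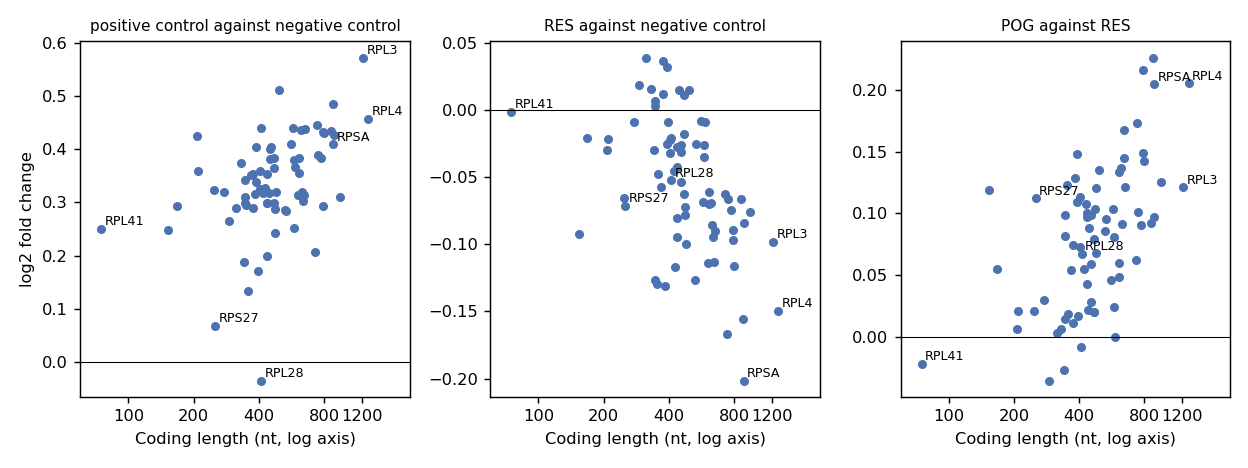
log2 fold change (vertical axis, with a separate scale for each panel) against coding length (horizontal log axis, nucleotides) for 74 ribosomal protein genes in 3 comparisons. Each point is a gene and the line marks 0. Spearman rho is 0.46 with serum, -0.52 with RES and 0.56 for POG against RES.

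The pyrimidine run did not sort the serum changes in the same way. Among the same 74 members, 59 have a RefSeq start, and the serum median was 0.32 for the 44 with a run of at least 8 and 0.33 for the 15 with a shorter one. With RES the medians were -0.06 and -0.04, and 9 of the 44 and 1 of the 15 were called lower. For DEG against RES the medians were 0.12 and 0.08, with 30 and 6 called higher. For POG against RES they were 0.08 and 0.09, with 20 and 8 called higher. Members that host small nucleolar RNAs in their introns (28 of the 85, with 60 such RNAs) were compared within the same 74. The 27 hosts had a serum median of 0.32 against 0.35 for the 47 others, and a RES median of -0.08 against -0.04.

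TOP mRNAs outside the RPL and RPS symbols encode translation factors and a few other proteins. Of the 22 tested, 19 were higher with serum and 0 lower, 7 were lower with RES and 0 higher, and 3 were higher with POG and 0 lower. Over all genes 21.4% were higher and 20.9% lower with serum, 6.21% were lower with RES and 5.93% higher with POG. RACK1 and FAU, parts of the ribosome under other names, rose with serum by 0.27 and 0.24. VIM, the intermediate filament vimentin, had the largest called rise of the list (0.56, FDR = 4.44e-58), followed by EEF1B2, an exchange factor of elongation (0.50). With POG the elongation factor EEF1A1 rose by 0.16 (FDR = 1.19e-05) and the helicase EIF4A2 by 0.14.

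Mitochondrial ribosomal proteins build a separate ribosome inside the organelle. Of 78 tested, 58 were higher with serum and 2 lower, led by MRPL12 (0.76) and MRPL24 (0.72), with MRPL38 (-0.37) and MRPL49 (-0.16) lower. The serum counts stand against 21.4% of all genes higher and 20.9% lower. With RES 0 were higher and 1 lower, both under the 4.94% and 6.21% of all genes. With POG 5 were higher, among them MRPL39 and MRPL19 (both 0.20), and 3 lower, among them MRPS24 (-0.41) and MRPS6 (-0.28). The POG count higher was near the 5.93% of all genes, and its count lower was under their 8.57%. Among chaperones and assembly factors of the cytosolic ribosome, 22 of 29 were higher with serum and 0 lower, against the same 21.4% and 20.9% of all genes, led by RRS1 (0.78), which brings 5S RNA into the large subunit, and LTV1 (0.63), a small-subunit assembly factor. With POG 2 of the 29 were higher and 2 lower, counts near the 5.93% and 8.57% of all genes. GNL2 (0.13) and RIOK3 (0.15) rose, and HEATR3 (-0.32), which imports RPL5, and GRWD1 (-0.14), an RPL3 chaperone, fell.

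Of 21 tested genes of the MYC and mTORC1 control of ribosome production, 6 were higher and 5 lower with serum, counts near the 21.4% higher and 20.9% lower of all genes. MYC had 94.0 CPM on average with serum and 46.6 CPM without (log2 fold change 1.01, SE 0.050, FDR = 2.59e-85). EIF4EBP1, the translation repressor inhibited by mTORC1, rose by 0.59. SESN1 (-0.44) and TSC1 (-0.29), which restrain mTORC1, fell. LARP1 had a log2 difference of 0.03 (FDR = 0.594). With POG 0 of the 21 were higher and 1 was lower, against 5.93% and 8.57% of all genes. The 1 lower was DDIT4, another mTORC1 inhibitor, which fell by 0.22 (FDR = 2.49e-07). Of 5 genes around MDM2 that respond to free ribosomal proteins, 0 were higher and 3 lower with serum, against 21.4% and 20.9% of all genes. Among the 3 were the cell-cycle inhibitor CDKN1A (-0.46) and MDM2 (-0.31). Of 15 genes that modify ribosomal proteins or resolve stalled ribosomes, 6 were higher and 5 lower with serum, against 21.4% and 20.9% of all genes, among them the rescue factors PELO (0.38) and HBS1L (0.22), and GTPBP1 (-0.22) and the kinase RPS6KA3 (-0.20).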

How the data were processed

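The authors aligned reads of polyA-selected mRNA to hg38 with STAR and counted Ensembl genes with featureCounts (versions not given in the sources used here). Their methods also name BWA MEM. The deposited table holds raw counts for 43836 genes in 12 columns, each matched to its sample by label. Gene symbols came from GENCODE v44, which matched 43214 identifiers.

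Counts were analysed in R 4.3.3 with edgeR 4.0.16. Genes were kept by filterByExpr with groups as the design (17092 genes), libraries were scaled by TMM, and dispersions were estimated over all 12 libraries (biological coefficient of variation 3.21%). Groups were compared by edgeR's exact test, as in the study, with Benjamini-Hochberg adjustment over all genes tested and a call at FDR under 0.05. Standard errors and 95% intervals (1.96 SE) came from the quasi-likelihood fit. CPM values are TMM-scaled and so relative to the rest of each library. Depth was 38464619 to 51416358 counted reads. The scripts were tested on simulated data.

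Alternatives were DESeq2 1.42.0, the quasi-likelihood test, other scalings and filters, dispersions from the 2 groups compared, FDR under 0.01, and each library left out. Members and gene lists were chosen with earlier results of these data known. Genes named are the 3 largest called changes each way against the negative control (2 between compounds), a fixed list of members with known roles and the L paralogs with their parents, the most and least abundant per length, and the 2 largest called changes each way of every other list with serum and POG. RPL28, RPL17, RPS12, RPS15, RPS20, RPL27A, RPS4X, LARP1, RACK1, FAU and the further members lower with RES were chosen after their values were seen. Some genes that the rule names or counts are not reported here by name. Coding lengths are those of GENCODE v44 canonical transcripts, and start-site sequences are from RefSeq.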

Additional observations from a re-analysis of the deposited data

How the results depend on the processing

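No paired analysis was possible because the labels give no replicate numbers, which here follow only the order of the samples. No member called in a comparison changed sign under any alternative other than scaling to the members. DESeq2, the quasi-likelihood test, DESeq2 size factors, TMM without the members and both filters left every count of called members within 1.5 times. With plain library totals, the members called against the negative control numbered 4 (RES), 9 (POG) and 8 (DEG). The medians over the members tested were -0.0255, 0.0455 and 0.0734, while the median of all genes moved to 0.03, 0.03 and 0.02. Over all genes, 7.23% were then higher and 4.06% lower with RES, 8.76% and 6.9% with POG, and 4.93% and 5.08% with DEG. The 4 with RES were RPSA, RPL7, RPL4 and RPS2, all lower, a count near the share of all genes lower. With dispersions from the 2 groups compared, 30 (RES), 15 (POG) and 22 (DEG) members were called against the negative control. For DEG against POG there were 16. At FDR under 0.01, 4 were called with RES and 24 for POG against RES. The shares of all genes called with these dispersions or at this FDR were not counted, so whether the members exceed them cannot be told. Scaled to the members themselves, which was added after seeing the data, the count was 19 with serum. Of the 77 members called higher on the usual scale, 39 changed sign and 7 of these were called lower. The counts were 1 each with RES, POG and DEG, 9 for POG against RES and 1 for DEG against RES. The 1 with RES was lower, against 1.67% of all genes lower in the same fit. The 1 with POG and the 1 with DEG were higher, against 2.32% and 0.708% of all genes higher. For POG against RES 6 were higher and 3 lower, against 4.39% and 20.7% of all genes. The 1 for DEG against RES was lower, against 21.6% of all genes lower. With 84 members tested, each of these single calls stood near or under the share of all genes.

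With each library left out, the counts ranged from 74 to 79 with serum, 3 to 9 with RES, 0 to 4 with POG, 1 to 3 with DEG, 25 to 36 for POG against RES and 17 to 39 for DEG against RES. The medians ranged from 0.26 to 0.40 with serum, -0.073 to -0.0284 with RES, 0.0013 to 0.0417 with POG, 0.0333 to 0.0711 with DEG and 0.0204 to 0.0428 for DEG against POG. Where a positive control, negative control or DEG library was left out, its group held 1 library, which was assumed to vary like the other groups. Over nuclear genes alone, the share of reads on members was 3.04% in the negative controls, 2.97% with RES, 3.14% with POG and 3.18% with DEG. The causes were not tested. Differences of about 0.1 on the log2 scale are near what 2 or 3 libraries a group can resolve, since SEs at or over 100 CPM ran from 0.024 to 0.047.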
